A study of Saccharomyces cerevisiae with 2 samples.

Results

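The 38 genes described here are the full-length Gag-Pol open reading frames (ORFs) of the yeast retrotransposons Ty1, Ty2 and Ty4. They were chosen from the 6002 nuclear protein-coding genes of the R64 (sacCer3) gene table as ORFs with no gene name of their own and a length of 5269 or 5272 bp for Ty1 (26 copies), 5314 bp for Ty2 (10 copies) or 5410 bp for Ty4 (2 copies). The rule uses annotation only, though it was set with earlier results of these data known. The family is read from the length, since the table does not annotate transposons. Strand was read from the W or C in the systematic name, which gave 23 copies on the Watson and 15 on the Crick strand of 13 chromosomes. In 37 of the 38 a shorter ORF of the table shares the start of the long one on that strand, 1323 bp long for Ty1, 1317 bp for Ty2 and 1242 bp for Ty4. That stretch is called the Gag part below and the rest of the ORF the Pol part. YPL060C-A, a Ty4 copy, has no such partner and was given the Gag length of the other Ty4 copy.

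Ty elements are retrotransposons flanked by long terminal repeats. Their RNA is packed into virus-like particles, copied into DNA by reverse transcriptase, and integrated, in Ty1 mostly upstream of genes read by RNA polymerase III such as tRNA genes. Gag encodes the particle's shell protein. Pol, reached by a programmed frameshift of the ribosome near the end of Gag, encodes protease, integrase, reverse transcriptase and RNase H, in that order. Ty1 RNA is among the abundant transcripts of growing yeast, and reverse transcription passes through an RNA:DNA hybrid.

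The data are one DRIP-seq peak list. Genomic DNA of asynchronous Saccharomyces cerevisiae, strain WRBb-9D, grown in YPAD at 30 °C to mid-log phase, was cut with restriction enzymes and immunoprecipitated with S9.6, which binds RNA:DNA hybrids. The culture, called wild type in the labels, is MATa with the markers ade2-1, can1-100, trp1-1 and his3-11,15, a leu2 mutation, the bar1-delta deletion, a tagged helicase gene (RRM3::FLAG::KAN) and the construct ura3::URA3/GPD-Tk(7x), and the input DNA came from the same genotype. With 1 S9.6 IP there is no replicate, so all values below are descriptions of that library, with no test and no error between replicates. Read depth is unknown. The list held 1687 nuclear peaks, and its whole-number score is the authors' own, on a scale not given in the sources used here. Copies of a family are nearly identical in sequence, and the sources used here say neither how reads matching several copies were placed, nor how many copies the strain carries, nor how the input was used. Copies are therefore not independent measurements, the value of any single copy is uncertain, and the part of copy number in the results was not tested.

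Peaks lay over most of every Ty1 ORF and over almost nothing of Ty4. In Ty2 they lay over the last part of the ORF and, in most copies, a patch behind the end of Gag. Together the 38 ORFs make up 1.67% of the nuclear genome but held 16.7% of its bases inside peaks, of which Ty1 held 14.0% and Ty2 2.68%. All 26 Ty1 copies, 3 of 10 Ty2 copies and 0 of 2 Ty4 copies had at least 50% of their length inside peaks, a state called covered below. Of all nuclear protein-coding genes 4.42% were covered, and 3.96% without the 38. The second share still counts the shorter Gag ORFs that lie on the same bases, 24 of 26 of them covered in Ty1. At 90% of the length, 18 Ty1 copies and no Ty2 copy remained, against 1.45% of all genes. The lowest Ty1 copy (72.3%) lay above the highest Ty2 copy (60.5%), and the lowest Ty2 copy (33.5%) above the higher Ty4 copy (8.32%), so the families did not overlap.

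**Figure D1:**
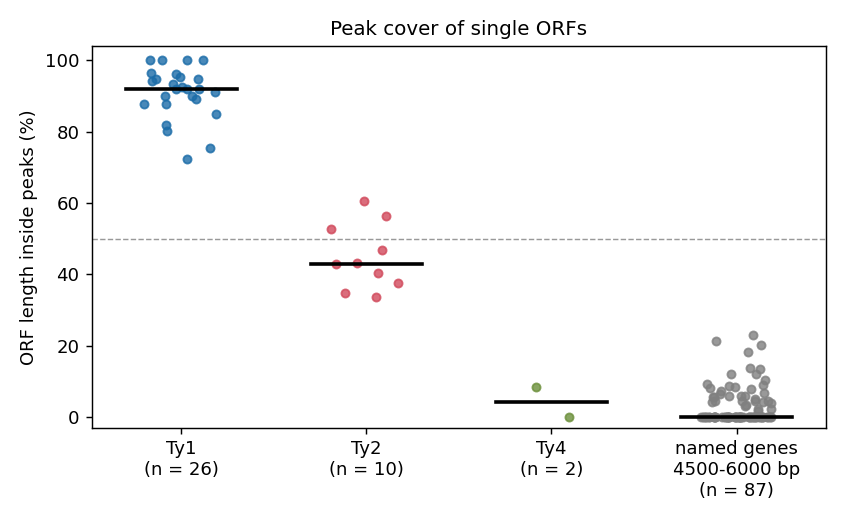
Percent of each ORF inside S9.6 peaks (vertical axis) for single Ty1, Ty2 and Ty4 copies and for 87 named genes of 4500 to 6000 bp; each point is an ORF, the black bar the median and the dashed line 50%. The 26 Ty1 copies sit between 72.3% and 100%, the 10 Ty2 copies between 33.5% and 60.5%, and no named gene is above 23.1%.

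Named genes of like length did not have this cover. Among 87 named genes of 4500 to 6000 bp, 36 were touched by a peak, none was covered, and the median was 0% of the length inside peaks. The 4 most covered were PMD1 with 23.1%, RKR1, a ubiquitin ligase of ribosome quality control, with 21.3%, FIG2, a cell wall adhesin of mating, with 20.2%, and USO1, a tether of vesicles to the Golgi, with 18.1%. Their highest score was 38, in FIG2, and the highest among all 87 was 82. Ty4 copies lay within the range of these genes, while every Ty1 and Ty2 copy was above it.

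Within Ty1 the spread was narrow. The median copy had 91.9% of its ORF inside peaks, 18 copies reached 90%, and 4 lay wholly inside a single peak. These 4 were YER138C (chromosome V, 443756 to 449024, peak score 173), YGR038C-B (chromosome VII, 562199 to 567467, score 166), YJR027W (chromosome X, 472760 to 478028, score 193) and YLR157C-B (chromosome XII, 476333 to 481601, score 318). Their peaks ran beyond the element: that over YER138C was 6675 bp wide, that over YGR038C-B reached ACB1 and ORM1, and that over YJR027W entered the next Ty1 copy, YJR029W, 316 bp away. YLR157C-B shared a peak of 12575 bp with the asparaginase genes ASP3-3 and ASP3-4 and the 5S rRNA genes RDN5-4 and RDN5-5, and the summit of that peak, with the highest score of the family, lay in the Ty1 ORF at position 3814.

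At the other end of the family, YPR158C-D (chromosome XVI, 850989 to 856257) had 72.3% inside 3 peaks, with a highest score of 204. YLR227W-B (chromosome XII, 593438 to 598706) had 75.3% inside 6 peaks, the most of any copy, with a highest score of 181. YPR158W-B (chromosome XVI, 844709 to 849980), which lies 1009 bp from YPR158C-D, had 80.1% inside 4 peaks with a highest score of 133, and YNL284C-B (chromosome XIV, 96964 to 102232) had 82.0% inside 4 peaks with a highest score of 162. These copies were broken into 3 to 6 peaks, against 2 in the median copy. Their highest scores, 133 to 204, lay on both sides of the Ty1 median of 176 (85 to 318 over all 26 copies). Of the 2 copies of 5272 bp, YBR012W-B had 91.9% and YPR158W-B 80.1%, both inside the range of the 24 copies of 5269 bp.

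In the Ty1 copies with a gap between peaks in Gag, it mostly fell in the same stretch. In 18 of 26 copies a gap of 100 bp or more opened in the Gag part, with a median length of 387.5 bp (175 to 800 bp), and in all 18 it closed before Gag ended. Its start had a median at ORF position 289 and its end at 645. Positions 478 to 526 lay inside the gap in 17 of the 18, the exception being YLR227W-B, whose longest Gag gap ran from 664 to 988. Nearly all peak edges in the list lie on a grid of 25 bp. Positions and lengths of gaps and blocks, here and below, are therefore no finer than that. The longest gap was that of YER160C (175 to 974), followed by YPR158C-D (1 to 782), the one copy whose gap began at the first base.

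Counted in bins of 100 bp, the stretch from 301 to 600 was the only part of the Ty1 ORF inside peaks in fewer than 50% of the copies (401 to 550 with bins of 50 bp). The lowest bin, 401 to 500, was inside peaks in 10 of 26 copies. On either side the cover rose by steps. Next to the dip, 18 copies were inside peaks at 201 to 300 and 19 at 601 to 700. Further out it was nearly complete, with 25 copies at 1 to 100 and all 26 from 1001 to 1300. Bins inside peaks in every copy numbered 21 of 53, and the last run of them, from 4201 to 5269, took in the end of the ORF.

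A further set of gaps lay in the Pol part. There were 17 gaps of 100 bp or more, spread over 12 copies, from 175 to 500 bp long. Their positions ran from 1333 to 4157, but 7 of the 12 copies shared positions 3039 to 3132, and the bin from 3001 to 3100 was inside peaks in 19 of 26 copies. Among these 7 were YGR027W-B (gap from 2920 to 3344), YML039W (2999 to 3323) and YDR210C-D (3028 to 3202). A gap in Gag alone was seen in 10 copies, gaps in both parts in 8, in Pol alone in 4 (YBL005W-B, YGR027W-B, YMR045C and YOR142W-B) and in neither in the 4 copies under a single peak.

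**Figure D2:**
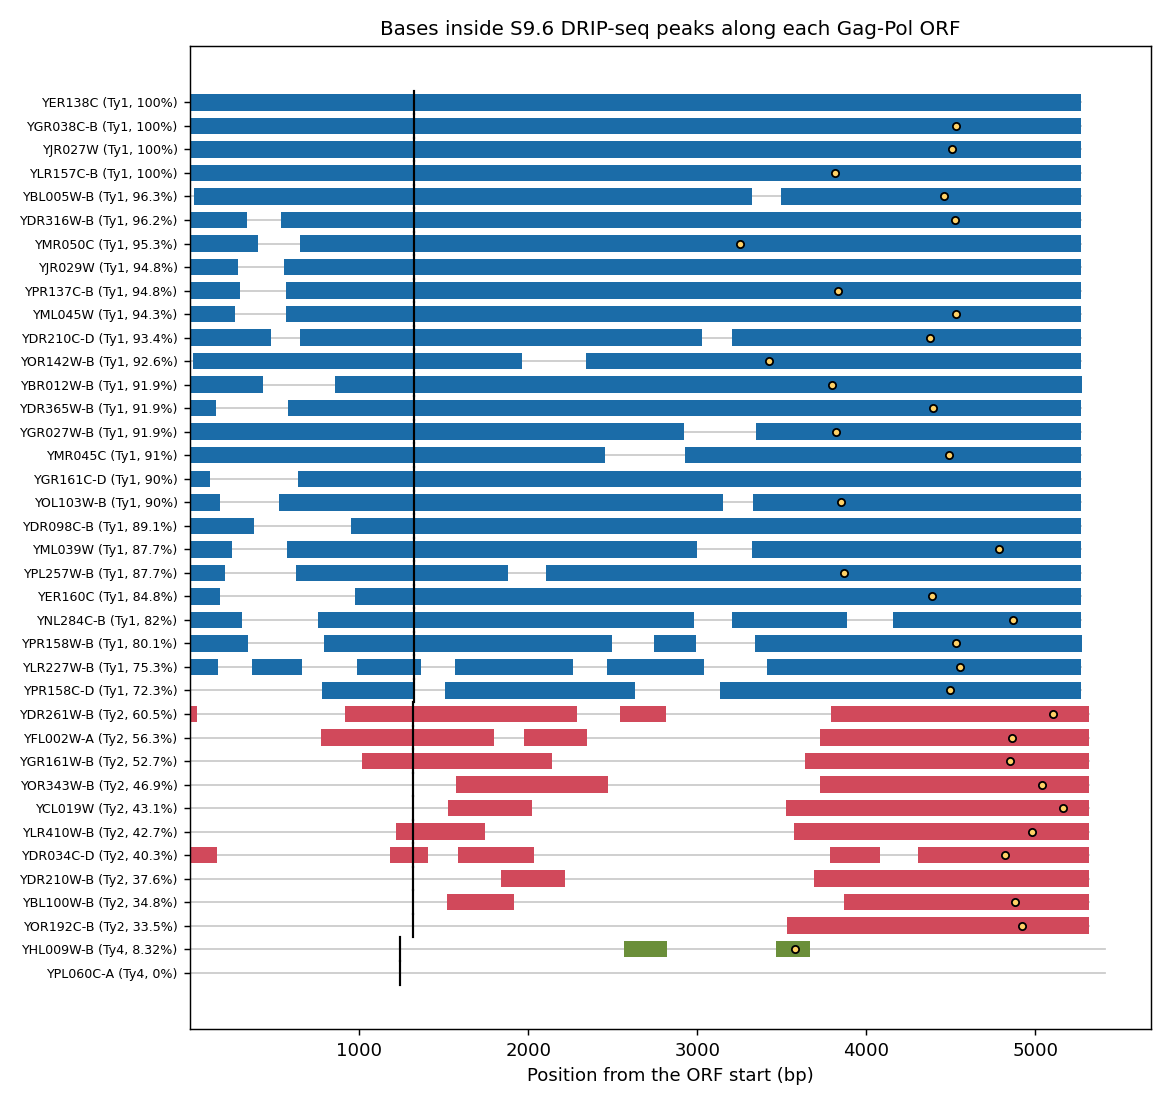
Each line is a Gag-Pol ORF drawn from its start (horizontal axis, bp), filled where bases lay inside S9.6 peaks, with Ty1 in blue, Ty2 in red and Ty4 in green. The black tick is the end of the Gag part and the yellow dot the summit of the peak with the highest score where it falls inside the ORF. The Ty1 gaps in Gag gather around positions 289 to 645, and 7 of the 12 copies with a gap in Pol share 3039 to 3132. All Ty2 copies share a filled last part and an empty stretch before it.

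Ty2 elements, the closest relatives of Ty1, showed another layout. The 4 copies with most cover were YDR261W-B (chromosome IV, 981462 to 986775) with 60.5% inside peaks and a highest score of 64, YFL002W-A (chromosome VI, 138204 to 143517) with 56.3% and 86, YGR161W-B (chromosome VII, 811738 to 817051) with 52.7% and 110, and YOR343W-B (chromosome XV, 970578 to 975891) with 46.9% and 103. YCL019W and YLR410W-B followed with 43.1% and 42.7%. The 4 with least were YDR034C-D (chromosome IV, 514043 to 519356) with 40.3% and a score of 80, YDR210W-B (chromosome IV, 872112 to 877425) with 37.6% and 82, YBL100W-B (chromosome II, 29935 to 35248) with 34.8% and 84, and YOR192C-B (chromosome XV, 704419 to 709732) with 33.5% and 69. The score of 110, the highest of the family, belongs to a peak of 7000 bp that also covers the Ty1 copy YGR161C-D, 696 bp away. Its summit lies in YGR161W-B, and the comparison of scores below counts the same peak once for each of these copies.

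In every Ty2 copy the last block of peak cover ran through to the end of the ORF. It began between positions 3525 and 4307, with a median of 3706.5, and held 1008 to 1790 bp of the ORF. YDR034C-D had the latest start, because a gap of 225 bp split its last part, and a block from 3782 to 4081 lay before that gap. Ahead of the last block came an empty stretch: bins from 2801 to 3500 were inside peaks in none of the 10 copies. Upstream of it, 9 copies had at least 1 more block, and 8 of those shared positions 1582 to 1743, behind the end of Gag. YOR192C-B had none, and its only cover was the last block from 3533 on. Bins from 201 to 800 in Gag were again inside peaks in no copy.

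Ty1 and Ty2 were alike at the end of the ORF, and differed in how much of the rest lay inside peaks. The lowest Ty1 bin (401 to 500) and the shared Ty1 gap in Pol (3039 to 3132) both fall where Ty2 bins were inside peaks in no copy. Such bins were 13 of 53 in Ty2, and 29 of 53 were inside peaks in fewer than 50% of copies. With so much of Ty2 low, these places do not show that the low stretches of the families coincide. In the last 25% of the ORF, 25 of 26 Ty1 copies and 9 of 10 Ty2 copies lay wholly inside peaks. From 50 to 75% of the length the median copy had 100% inside peaks in Ty1 and 24.3% in Ty2, from 25 to 50% it had 100% and 38.7%, and in the first 25% it had 78.2% and 4.14%. Over 52 bins of 100 bp, a pair of Ty1 copies had the same state in a median of 88.5% of bins (325 pairs, 65.4 to 100%) and a pair of Ty2 copies in 80.8% (45 pairs, 61.5 to 90.4%). A Ty1 and a Ty2 copy had the same state in 50% of bins (260 pairs, 32.7 to 75%). These shares also depend on how much of each family lay inside peaks, 90.9% of Ty1 bases and 44.8% of Ty2 bases. The agreement that such cover alone would give was not computed. The shares by themselves therefore do not show how alike the layouts are. Copies that share sequence may also share reads. The part of shared reads in the likeness within a family, or between Ty1 and Ty2 at the end of the ORF, was not tested.

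In both families Gag was less covered than Pol. The median Ty1 copy had 78.3% of Gag and 100% of Pol inside peaks, and the median difference per copy, Gag minus Pol, was -19.5 percentage points. Gag was the lower part in 18 Ty1 copies, equal in the 4 wholly covered ones and higher in 4, the highest of these being YMR045C with 100% of Gag and 88.0% of Pol. YER160C stood at the other extreme, with 39.5% of Gag and 100% of Pol. In Ty2 the median difference was -45.4 points and all 10 copies had less of Gag than of Pol inside peaks. Gag held no peak base in 5 Ty2 copies and at most 41.4%, in YFL002W-A. As separate entries of the gene table, 24 of 26 Ty1 Gag ORFs and none of the 10 Ty2 Gag ORFs were covered.

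**Figure D3:**
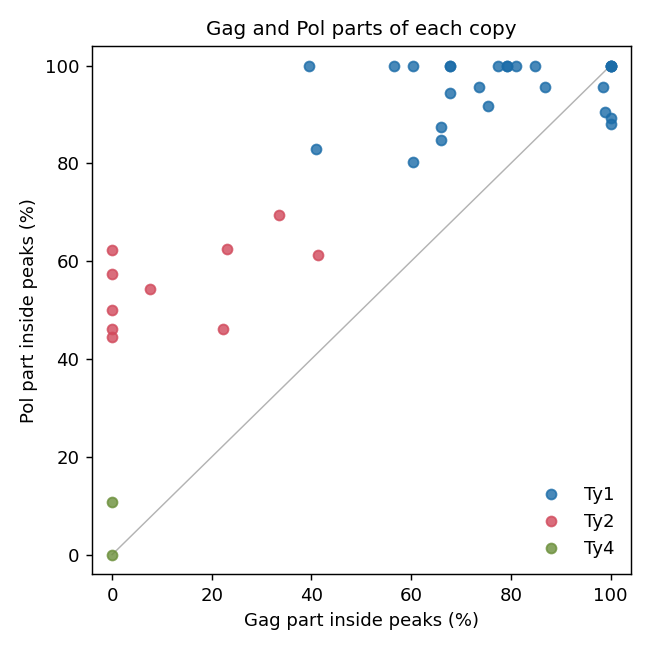
Percent of the Gag part (horizontal axis) and of the Pol part (vertical axis) of each copy inside S9.6 peaks, with Ty1 in blue, Ty2 in red and Ty4 in green; the grey line marks equal cover and points can coincide. All 10 Ty2 copies and 18 of 26 Ty1 copies lie above the line, and 4 Ty1 copies lie below it.

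Ty4, a rarer element of the same order of genes, held little cover. YHL009W-B (chromosome VIII, 85909 to 91318) had 8.32% of its length inside 2 short peaks, 250 bp wide with a score of 15 and 200 bp wide with a score of 32, both in Pol. YPL060C-A (chromosome XVI, 437333 to 442742) had no peak. The last 25% of the ORF, filled in Ty1 and Ty2, was empty in both. Of all nuclear protein-coding genes 21.2% were touched by a peak, and of the 87 named genes of like length 36 were. A count of 1 of 2 is small to read against either.

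Among peaks with their summit in the ORF, scores were highest towards its end. Of the 61 times a peak touched a Ty1 copy, the summit lay in the ORF in 41. The 25 summits at or after ORF position 3200 had a median score of 173 (42 to 318), and the 16 before it a median of 46.5 (20 to 96). A wide peak counts only where its summit lies. The other 20 summits lay outside the ORF and are not in this split. Among them, peaks that crossed the ORF start scored up to 240 in YGR027W-B and 215 in YML039W. Summits of the peak with the highest score in each Ty1 copy gathered in 2 stretches, with 6 between positions 3795 and 3866 and 12 between 4377 and 4551. Only 4 more lay elsewhere in the ORF (2 at 3250 to 3427 and 2 at 4786 to 4870), and in the other 4 copies that summit fell outside the ORF. In Ty2, 9 of 10 such summits lay between 4819 and 5162, which no Ty1 summit stretch but the last overlapped.

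**Figure D4:**
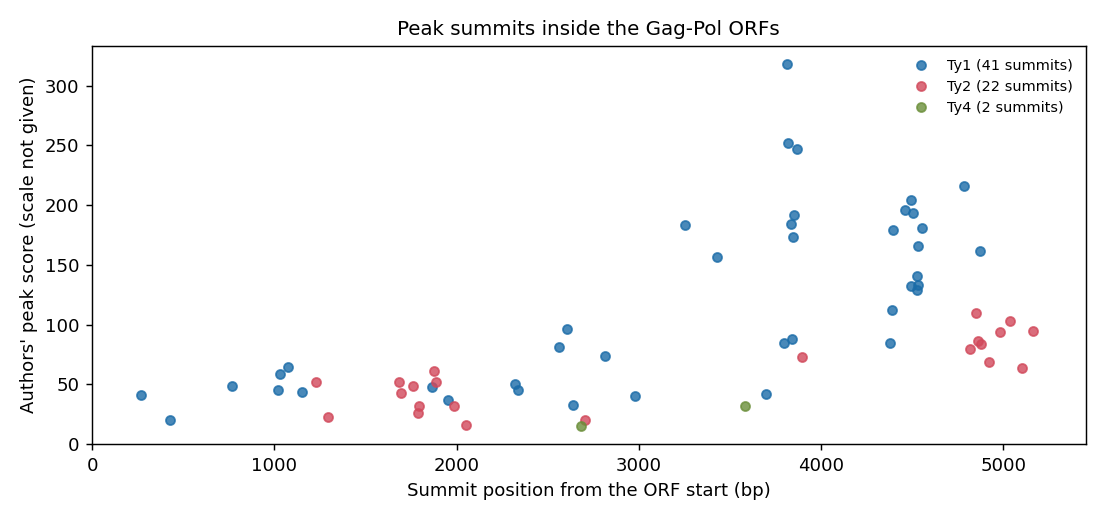
Authors' score (vertical axis, scale not given) of each peak whose summit lies inside a Ty1 (blue), Ty2 (red) or Ty4 (green) ORF, against the summit's distance from the ORF start (horizontal axis, bp). Ty1 summits in the ORF before position 3200 score at most 96, and those behind it reach 318. Peaks with their summit outside the ORF are not drawn.

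Among the 27 nuclear peaks that scored at least 162, 18 touched one of the Ty1 copies and none a Ty2 copy. Over all 1687 nuclear peaks, Ty1 copies were touched 61 times and Ty2 copies 25 times. With so few Ty2 peaks, none among 27 is near their share and says little about Ty2. Read at the same place, 500 bp before the ORF end, the peak score was 173 in the median Ty1 copy (85 to 318) and 85 in the median Ty2 copy (64 to 110). The ranges overlapped: 22 of 26 Ty1 copies exceeded the highest Ty2 copy and 4 did not. Within Ty1, the peak at ORF position 100 had a lower score than the one near the end in 19 of the 25 copies with a peak at both places, the same in the 4 copies under 1 peak, and a higher one in YDR098C-B and YJR029W. The peak over the start of YJR029W is the one that extends from YJR027W.

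Peaks did not stop at the ORF. In all 26 Ty1 copies a peak ran past the ORF end, by a median of 257 bp (38 to 2371 bp), and in all 10 Ty2 copies by a median of 221 bp (43 to 5324 bp, the longest being the peak shared with YGR161C-D). In the first 100 bp after the end 25 of 26 Ty1 copies were inside peaks, but in the bin from 401 to 500 bp after it only 7 were, and 15 again at 901 to 1000 bp. Before the ORF start the families parted: a peak crossed the start in 23 Ty1 copies and in 2 Ty2 copies, YDR034C-D and YDR261W-B. The 100 bp just ahead of the start was inside peaks in 21 of 26 Ty1 copies and 3 of 10 Ty2 copies. The gene table does not annotate long terminal repeats, so these flanks hold both repeat and neighbouring sequence.

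**Figure D5:**
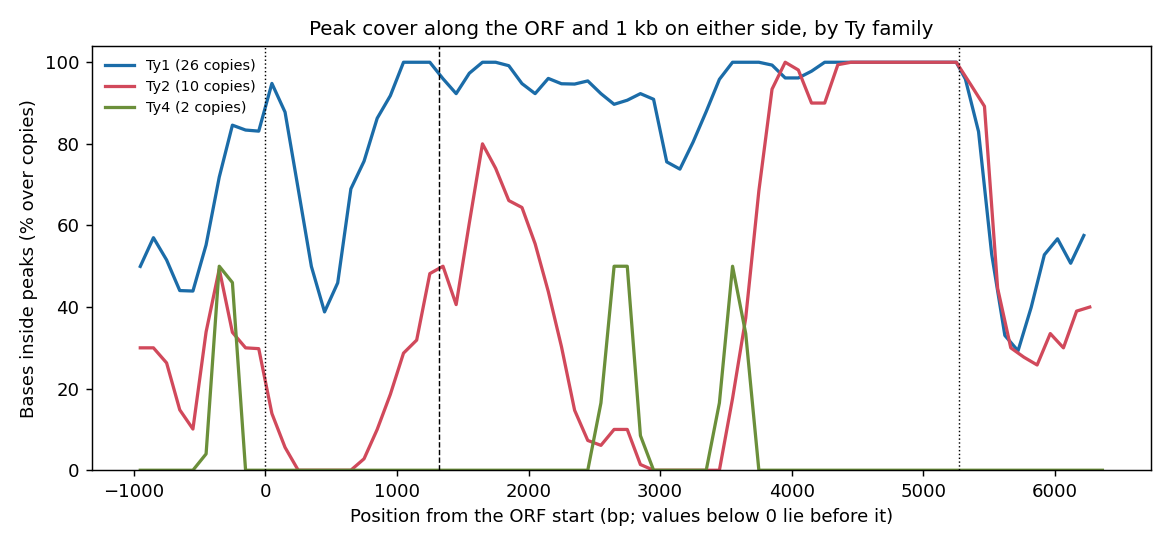
Percent of bases inside S9.6 peaks, in bins of 100 bp averaged over the copies of a family (vertical axis), along the ORF and 1 kb on either side (horizontal axis, bp from the start). Dotted lines mark the ORF start and the Ty1 ORF end, and the dashed line the end of Ty1 Gag. Ty1 dips to 38.8% in Gag, Ty2 is at 0% from 201 to 700 and from 2901 to 3500, and both are at 100% at the end of the ORF.

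Nearby tRNA genes were common, and copies with and without one had like cover. A tRNA gene lay within 1 kb of 19 of 26 Ty1 copies, with a median cover of 91.9% (72.3 to 100%), and the 7 copies without one had the same median of 91.9% (80.1 to 100%). In Ty2 the medians were 45.0% for the 6 copies with a tRNA gene that close and 40.2% for the 4 without. Of the 86 distinct peaks that touched a member, 9 also touched a tRNA gene. No share of all nuclear peaks is given beside this count, so it cannot be read as high or low. On the strands, the median Ty1 copy had 91.9% inside peaks on Watson (14 copies) and 92.2% on Crick (12 copies).

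Host genes that Ty elements depend on or are held back by were read as a list beside the background. In a list of 45 such genes, 40 of them protein-coding, no protein-coding member was covered and 11 were touched, beside 4.42% covered and 21.2% touched among all nuclear protein-coding genes. Both counts are near the background. Of the 5 tRNA genes, IMT3, a gene for the initiator methionine tRNA that primes Ty1 reverse transcription, was 100% inside a peak scoring 26, while IMT1, IMT2, IMT4 and HSX1, the tRNA for the rare arginine codon at the Ty1 frameshift site, had no peak. Among all nuclear tRNA genes 29.8% were covered, so 1 of 5 is near the background. RRM3, the helicase tagged in this strain, whose loss raises Ty1 mobility, was the most covered protein-coding member with 42.4% and a score of 71. Ty transcription factors had 3 of 15 touched (SPT7, TEA1 and SNF2), with no peak over GCR1, the longest of the rest. The RNA polymerase III genes met at integration had 2 of 8 touched (BRF1 and BDP1), with none over RPO31, the largest subunit. Factors that limit or assist Ty had 6 of 13 touched, with none over XRN1, the cytoplasmic exonuclease. None of the 4 RNase H genes, whose enzymes remove RNA from hybrids, had a peak.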

How the data were processed

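One S9.6 immunoprecipitate (1 IP) of budding yeast DNA was analysed, and no values of the input were used. Build sacCer3 was used with MACS2 2.1.1.20160309 and SAMtools 1.7, per the submitters' processing notes. For the aligner, peak threshold, treatment of reads with several locations and use of the input, the sources used here give nothing. The deposited list gives each peak's start, end, summit and the authors' whole-number score, on an unstated scale, which served only to order and select peaks of this list. Its fold, p and q columns are 0 throughout and were not used. Read depth is unknown, so no interval is given.

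Genes came from a RefSeq table of R64, without sequence, so no sequence is printed and the planned comparison of proteins was not run. Cover was the share of an ORF's bases inside nuclear peaks, computed with Python 3.11.15, numpy 2.4.6 and pandas 2.3.3. Profiles used 100 bp bins from the ORF start, and a bin counted as inside with 50% of its bases in peaks. The code recovered a planted block at its exact position in 38 of 38 ORFs in a simulated peak set. No test was run, since there is 1 library. Members and lists were chosen with earlier results of these data known. All members could be named. Values in full went to the 4 most and 4 least covered copies of Ty1 and Ty2, both Ty4 copies and each family's highest score. Genes outside the members were named from shared peaks, the host gene list and the 4 most covered genes of like length. RRM3, the touched host genes and other positions and stretches were picked after their values were seen. Alternatives were the peaks scoring 24 (the median) or more, 200 bp around each summit, any overlap or 90% in place of 50%, copies with no tRNA gene within 1 kb, copies over 10 kb from another member, the first 25% of the ORF as Gag, and bins of 50 bp.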

Additional observations from a re-analysis of the deposited data

How the results depend on the processing

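With 200 bp around each summit in place of whole peaks, no Ty1, Ty2 or Ty4 copy was covered (0 of each). The median percent inside fell to 4.71 in Ty1 and 7.53 in Ty2, whose order turned, and Gag minus Pol moved to -2.84 points in Ty1 and -10.0 points in Ty2. By construction, so few windows of that width cannot fill 50% of such an ORF. Any overlap gave 10 Ty2 copies, 1 Ty4 copy and 12 host genes, and 90% of the length gave 0 Ty2 copies. With bins of 50 bp the shared gap in Ty1 shrank from 300 bp to 150 bp, at 401 to 550. With peaks scoring 24 or more or the first 25% of the ORF as Gag, the counts, medians and Gag minus Pol differences of Ty1 and Ty2 kept their direction, and moved by less than the spread between copies or, for counts, by less than 1.5 times. Among copies with no tRNA gene within 1 kb, 7 of 7 Ty1 and 1 of 4 Ty2 copies were covered, and among copies over 10 kb from another member 18 of 18 and 2 of 8. The medians and differences of these subsets moved by less than the spread between copies. No paired analysis was possible because the IP and input share only replicate number 1 and only the IP has values. Unknown depth, shared reads and unknown copy number limit what the value of a single copy can show.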

Other observations

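Outside the 38 ORFs, 25 more nuclear ORFs of 3000 bp or more have no gene name. Of these, 5 were covered, and they were named here after their values were seen: YAR009C (3591 bp, 100% inside peaks, score 165), YLR035C-A (3468 bp, 100%, score 85), YNL054W-B (5251 bp, 95.7%, score 115), YDR261C-D (4816 bp, 90.1%, score 202) and YHR214C-B (5383 bp, 83.1%, score 160). By length, YNL054W-B lies just below the Ty1 lengths and YHR214C-B between the Ty2 and Ty4 lengths, and the rule left out both. The other 20 had at most 25.6% inside peaks, in YIL082W-A (4498 bp, score 45), and 10 of them had no peak. The covered ORFs thus lay in the range of the Ty1 copies and the next of the group below every Ty2 copy, and the gene table does not say which of them belong to a transposon.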
